A study of Mus musculus with 30 samples.

Results

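Of the growth hormone receptor mutant mice profiled here, the genes that turn amino acid nitrogen into urea in the liver are described: Cps1, Otc, Ass1, Asl, Arg1 and Slc25a15 of the urea cycle, and Gls2, Sds and Tdo2 of amino acid breakdown. Members were chosen by name, as the probes whose gene symbol in the platform annotation is one of these 9. The annotation used here names 12 probes for 7 of them, of 19406 genes named on 46643 probes, and Gls2 and Sds are not analysed here. The samples are male mice, killed at 4 months of age after a night without food, the controls included. Their growth hormone receptor was wild type (WT), cut short at amino acid 569 or at amino acid 391, mutated in its Box1 region (Box1), or absent (KO). Liver and subcutaneous fat were each measured on 15 Illumina bead arrays, 3 per genotype, so that 30 arrays were used. The labels call the mice transgenic, and the sources used here do not give strain, founder lines or the number of animals behind an array.

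As background, the urea cycle is the main route by which mammals dispose of the ammonia that amino acid breakdown releases, and the complete cycle runs in hepatocytes, most strongly in those near the portal vein. Its first steps lie in mitochondria (Cps1, Otc), an exchanger carries ornithine in and citrulline out (Slc25a15), and the last steps lie in the cytosol (Ass1, Asl, Arg1). Transcription of the cycle's genes rises in fasting, under glucagon and glucocorticoids, and growth hormone is known as a hormone that spares body nitrogen. Box1 is the receptor segment that engages the kinase JAK2, and a receptor that ends at 391 lacks the tyrosines where the transcription factor STAT5 binds.

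Each value is the ratio of a probe to its own median over the 15 arrays of the tissue, so no absolute level remains and levels of different probes or of the 2 tissues cannot be compared. For the same reason the labelled tissue could not be checked against markers as present or absent. Array medians lay between 0.98 and 1.01. A genotype name stands for the arrays so labelled, and replicate numbers only name arrays. The more variable of the probes for Ghr, the targeted gene, gave liver ratios of 0.23 to 0.3 in Box1 and 1.09 to 1.51 in KO, and since the sources used here do not place it in the gene, it may check none of the labels. Limma was fitted to the log2 ratios of all 15 livers, p-values (two-sided) were adjusted after Benjamini and Hochberg for 46643 probes, and a probe is called changed at an adjusted p under 0.05. Group values are log2 means ± SD (n = 3 arrays), and differences are log2 differences ± SE. Per the labels, WT and 569 shared a slide within a tissue, and 391 and KO shared another. Box1 lay on a slide with no other genotype, which held both its livers and its fat. In every other comparison, among them 391, Box1 or KO with WT, 391 with 569, and Box1 with 391 or KO, slide and genotype cannot be told apart.

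Pancreatic transcripts were high in 391 livers 2 and 3, where 15 and 13 of 15 measured acinar markers exceeded 2-fold, against 0 in each of the other 13 livers. Their summed log2 ratios were 52.2 and 38.7 there and lay between -1.83 and 3.39 elsewhere. By limma 1 acinar marker, Amy2a5, was called against WT, higher in 391 (1.08 ± 0.13, adjusted p = 0.00049), where 1.48% of all probes were called higher. In 391 liver 2, 5 of 6 skeletal muscle markers also exceeded 2-fold. Hepatocyte markers, 10 of 10 measured, did not exceed 2-fold in any liver, and their sums ran from -2.51 to 0.92. By genotype the sums ran from -2.51 to -0.63 in 569 and, without overlap, from -0.60 to 0.14 in WT. They ran from -0.73 to 0.91 in 391, -0.52 to 0.92 in Box1 and -0.58 to 0.20 in KO. Against WT, limma called 1 of the 10, Serpina1a, lower in 391 (-1.02 ± 0.19, adjusted p = 0.010), where 0.427% of all probes were called lower. In bulk tissue, fewer cells of a type and less RNA per cell cannot be told apart. For several members the differences in 391 are given with and without these arrays.

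The urea cycle probes stood higher in livers of 391, Box1 and KO than in WT, with larger differences in 391 than in Box1 or KO for each of these genes but Otc, while no probe of 569 was called. In 391 against WT, 3 of the 12 probes rose (both for Ass1 and 1 of the pair for Cps1), where 1.48% of all probes were called higher, and 0 fell (11 probes were higher and 0 lower at an unadjusted p under 0.05 in limma, beside 8.88% higher over all probes). In Box1 1 of 12 probes rose, against 1.06% of all probes, and in KO 1 of 12, against 1.44%, in both cases the same Ass1 probe. With 1 probe per gene (the most variable over the livers), 2 of 7 genes were called in 391 and 0 in Box1 and KO, where 3 of 7 had an unadjusted p under 0.05 each. Among the liver comparisons, a share of all probes at that unadjusted threshold is given for 391 against WT alone. Counts at it in other liver comparisons, here and below, have no such share beside them and are not read as results about the genes. The median difference of the 7 genes from WT was 0.98 in 391, 0.62 in Box1, 0.63 in KO and 0.13 in 569, beside medians over all probes of 0.02, 0.02, 0.01 and -0.02. Differences were above 0 for 12 of 12 probes in 391 (55% of all probes) and in Box1 (55.9%), and for 11 of 12 in KO (54.7%). With 9 of 12 probes every 391 liver lay above every WT liver (9.18% of all probes), with 7 every Box1 liver (11.5%) and with 6 every KO liver (10.6%). All of these comparisons use the same WT arrays.

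**Figure D1:**
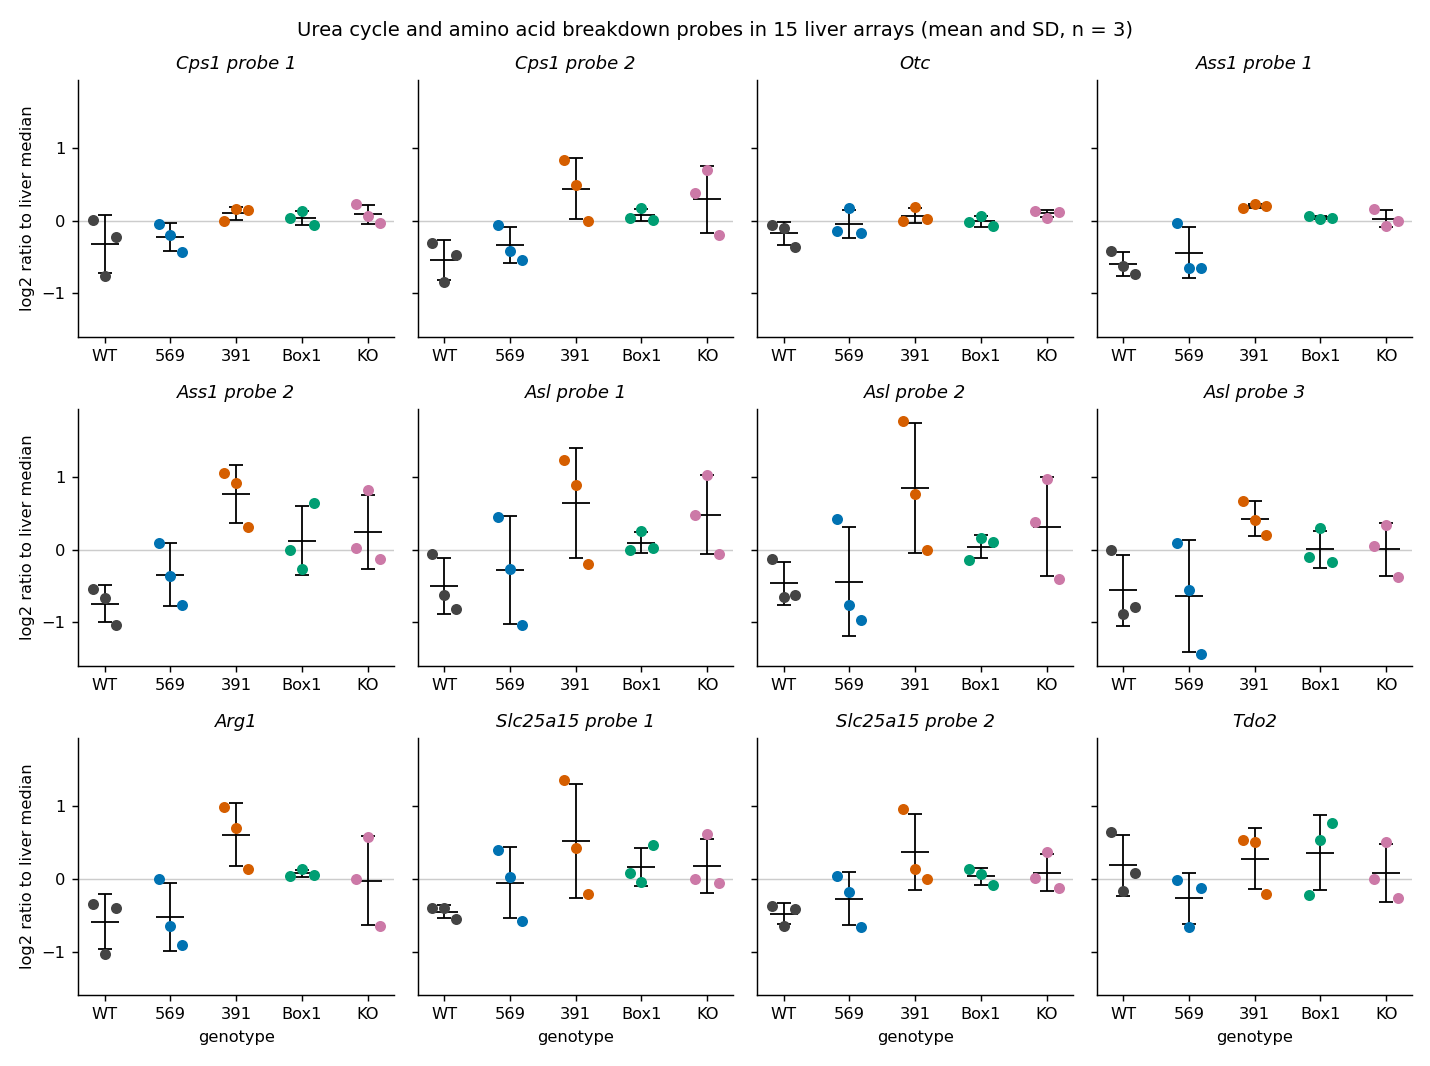
Log2 ratio to the liver median (vertical axes) of the 12 probes in each of the 15 liver arrays, by genotype (horizontal axes), with replicates 1 to 3 from left to right as colored points and the group mean ± SD (n = 3) in black. WT lies lowest or next to lowest in every panel but that of Tdo2, 391 reaches highest for Ass1, Asl, Arg1 and Slc25a15, and the spread within 391 and KO is wide for most probes other than Otc and the first probes of Cps1 and Ass1.

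Cps1 encodes the mitochondrial carbamoyl phosphate synthetase that takes up free ammonia and sets the cycle's entry. Its second probe gave ratios of 0.81, 0.56 and 0.72 in WT, 0.96, 0.75 and 0.69 in 569, 1.78, 1.41 and 1 in 391, 1.03, 1.13 and 1.01 in Box1, and 1.3, 1.63 and 0.87 in KO. Every liver of 391, Box1 and KO was above every WT liver, and 569 overlapped WT. In 391 this probe rose by 0.98 ± 0.23 (1.97-fold; 0.44 ± 0.42 against -0.54 ± 0.27, adjusted p = 0.038). In KO the difference was 0.83 (adjusted p = 0.079) and in Box1 0.62 (adjusted p = 0.25), and neither was called. KO passed the threshold in limma with array weights (0.87, adjusted p = 0.044) and without KO replicate 3 (1.08, adjusted p = 0.025). Box1 passed it in a fit of the 6 arrays alone (0.62, adjusted p = 0.041). No other refit of this probe called either. The first Cps1 probe moved less, at 1.01, 0.59 and 0.86 in WT, 0.97, 0.87 and 0.74 in 569, 1, 1.12 and 1.11 in 391, 1.03, 1.1 and 0.96 in Box1, and 1.17, 1.05 and 0.98 in KO. WT replicate 1 overlapped the mutants there, and differences from WT of 0.43 in 391, 0.36 in Box1 and 0.41 in KO were not called (adjusted p = 0.23, 0.35 and 0.25). The call of the second probe in 391 was lost without WT replicate 2 (0.83, adjusted p = 0.18), WT replicate 3 (1.01, 0.10), 391 replicate 1 (0.79, 0.15) or 391 replicate 2 (0.95, 0.081). It was also lost with limma's prior variance set to trend and robust (adjusted p = 0.051), in a fit of these 6 arrays alone (0.14) and in 1 fit of all 30 arrays (0.84). The fit of all 30 arrays takes its spread from fat as well, and its difference stayed 0.98. The SD of this probe was 2.40 in fat of Box1 and at most 0.46 in a liver group. Without both 391 livers with pancreatic transcripts the difference was 1.37, with 1 array left in 391 and so no spread of its own.

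Otc encodes ornithine transcarbamylase, the X-linked mitochondrial enzyme that joins carbamoyl phosphate to ornithine. Its probe was the steadiest, with an SD of 0.15 over the 15 livers, and gave ratios of 0.96, 0.93 and 0.78 in WT, 0.91, 1.13 and 0.89 in 569, 1, 1.14 and 1.02 in 391, 0.99, 1.05 and 0.95 in Box1, and 1.1, 1.03 and 1.09 in KO. The KO and 391 livers all lay above WT, by differences of 0.28 ± 0.10 and 0.25 ± 0.10 that were not called (adjusted p = 0.24 and 0.33). The 95% interval of the KO difference ran from 0.05 to 0.50. The 0.62 fitted for Ass1 probe 1 in KO lies above it but has an error of its own, and Otc and Ass1 were not tested against each other.

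Slc25a15 encodes the ornithine and citrulline exchanger of the mitochondrial membrane. Its first probe gave 0.76, 0.76 and 0.68 in WT, 1.32, 1.02 and 0.67 in 569, 2.57, 1.34 and 0.87 in 391, 1.06, 0.97 and 1.38 in Box1, and 1, 1.53 and 0.96 in KO. Its second gave 0.77, 0.64 and 0.75 in WT, 1.03, 0.88 and 0.63 in 569, 1.96, 1.1 and 1 in 391, 1.1, 1.05 and 0.94 in Box1, and 1.01, 1.29 and 0.92 in KO. With both probes, all livers of 391, Box1 and KO lay above all WT livers. Neither was called: the differences from WT were 0.98 and 0.85 in 391 (adjusted p = 0.16 and 0.069), 0.62 and 0.52 in Box1 (0.46 and 0.34), and 0.63 and 0.57 in KO (0.43 and 0.27). 391 replicate 1 was the highest of all livers, and with it as the only 391 array the second probe differed from WT by 1.45.

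Ass1 encodes argininosuccinate synthetase, which brings in the second nitrogen from aspartate and is a slow step of the cycle. Its first probe gave 0.75, 0.65 and 0.6 in WT, 0.98, 0.64 and 0.64 in 569, 1.13, 1.17 and 1.15 in 391, 1.05, 1.02 and 1.03 in Box1, and 1.12, 0.95 and 1 in KO. All 9 livers of 391, Box1 and KO lay above the WT livers, and 391 and Box1 were tight while 1 of the 569 livers stood near KO. This probe rose by 0.79 ± 0.14 in 391 (1.73-fold; 0.20 ± 0.03 against -0.59 ± 0.16, adjusted p = 0.0069), by 0.64 ± 0.14 in Box1 (1.56-fold; 0.05 ± 0.02, adjusted p = 0.033) and by 0.62 ± 0.14 in KO (1.54-fold; 0.03 ± 0.12, adjusted p = 0.029). The second probe gave 0.69, 0.63 and 0.49 in WT, 1.07, 0.78 and 0.59 in 569, 2.09, 1.89 and 1.24 in 391, 1, 0.83 and 1.57 in Box1, and 1.02, 1.78 and 0.92 in KO. It again separated the 3 genotypes from WT with wider spread, and rose by 1.51 ± 0.29 in 391 (2.84-fold; 0.76 ± 0.40 against -0.74 ± 0.26, adjusted p = 0.014). Its differences of 0.87 in Box1 and 0.99 in KO were not called (adjusted p = 0.19 and 0.11).

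By group mean of the first Ass1 probe, the order was WT (-0.59), 569 (-0.44), KO (0.03), Box1 (0.05) and 391 (0.20). Neighbouring groups in that order that overlap are WT with 569, 569 with KO, and KO with Box1, while the 391 livers all lay above those of Box1 by a difference that was not called. In 391 the first probe stayed called in each of the 6 refits without 1 WT or 391 array. Without both pancreatic arrays, which leaves 1 array in 391, it differed by 0.77 and the second probe by 1.81. The second probe lost its call without WT replicate 3 (1.37, adjusted p = 0.073) or 391 replicate 1 (1.36, 0.059). In Box1 and in KO the first probe lost its call in 5 of 6 such refits each, with adjusted p of 0.10 to 0.15 in Box1 and 0.066 to 0.13 in KO, and with differences from 0.55 to 0.67; WT replicate 1 was the exception in both. These Box1 and KO calls were also lost with the trend and robust prior (adjusted p = 0.11 and 0.10) and in 1 fit of all 30 arrays (0.89 and 0.90). The fit of all 30 arrays ended the 391 calls of both Ass1 probes too (0.82 and 0.14). That fit takes its spread from fat as well, where the SD in Box1 was 1.86 and 1.40 for these probes.

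**Figure D2:**
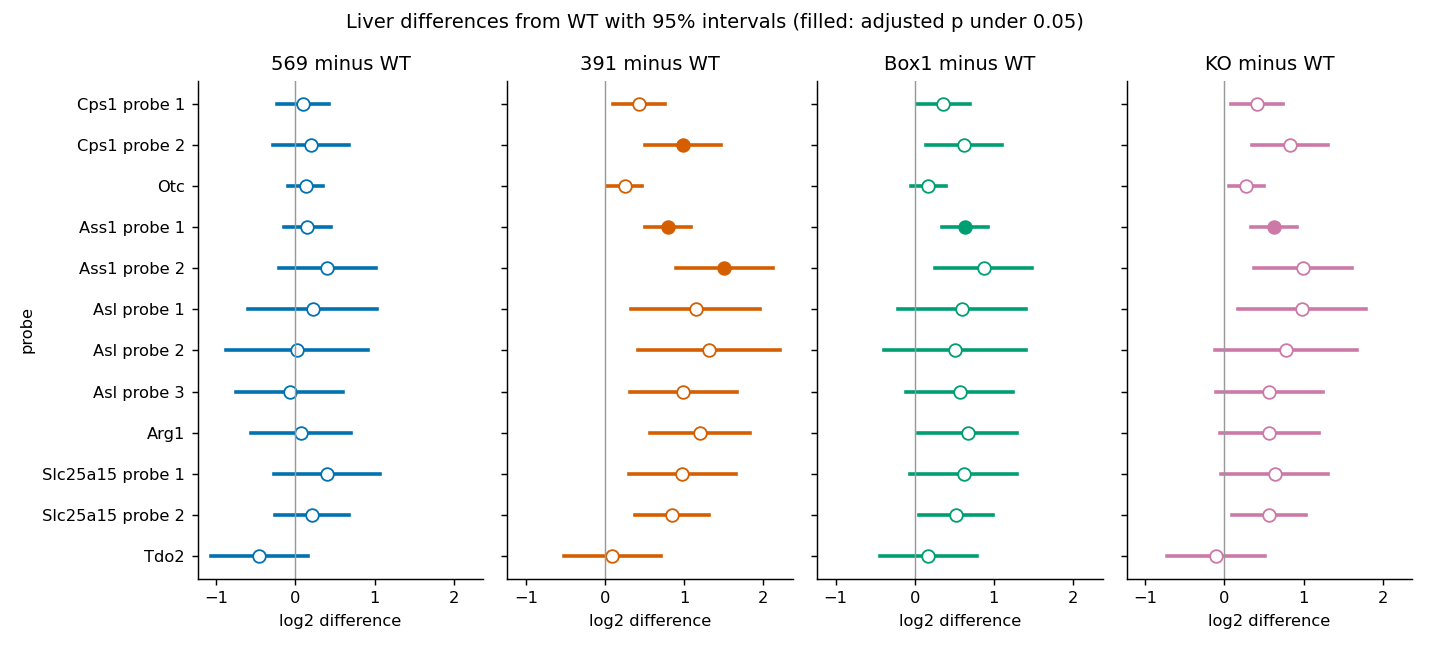
Difference from WT in liver (horizontal axes, log2) of each of the 12 probes (vertical axis), with 1 panel per mutant and bars for the 95% interval of the limma fit; filled points have an adjusted p under 0.05. Filled points are Cps1 probe 2 and both Ass1 probes in 391, and Ass1 probe 1 in Box1 and in KO, and no point of 569 is filled.

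Promoter windows from RefSeq (assembly GRCm38.p6) were on hand for 4 of the 9 members (Ass1, Otc, Slc25a15 and Tdo2). The 250 bases before the start site are printed for Ass1, the gene with most calls, and for Tdo2, whose probe was called in no liver comparison, to set side by side the sequence next to a gene that moved and one without a call. The Ass1 window is chr2:31470020-31470269 on the forward strand and the Tdo2 window chr3:81975729-81975978 on the reverse strand, each 5′ to 3′, with capitals for a motif match. Motifs searched on both strands were the GC box, spelled GGGCGG, and the TATA box, spelled TATAAA.
Ass1: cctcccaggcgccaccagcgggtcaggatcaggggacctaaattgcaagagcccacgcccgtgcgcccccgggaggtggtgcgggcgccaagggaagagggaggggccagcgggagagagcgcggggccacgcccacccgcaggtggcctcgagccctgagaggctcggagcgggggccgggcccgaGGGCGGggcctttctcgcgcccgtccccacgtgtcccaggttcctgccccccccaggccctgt
Tdo2: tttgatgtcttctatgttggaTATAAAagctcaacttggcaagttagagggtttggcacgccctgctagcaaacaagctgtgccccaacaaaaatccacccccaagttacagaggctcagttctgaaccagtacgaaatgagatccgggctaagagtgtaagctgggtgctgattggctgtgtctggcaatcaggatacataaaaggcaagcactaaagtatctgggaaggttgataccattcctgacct
The Ass1 window had a GC content of 75.6% and 1 GC box, which starts at -63 from the start site, and no TATA box. The Tdo2 window had a GC content of 46.4%, no GC box, and a TATA box motif at -229. The median over all 32851 RefSeq promoters was 52.4%, and the GC box was found in 32.7% and the TATA box in 12.4% of them. The letters TTCNNNGAA, the core of a STAT5 site, occurred in 7.02% of promoters and in none of the 5 windows of these 4 members. The same held for TGACG, a part of the cAMP response element, which 17.8% of promoters hold. The Slc25a15 windows, of another gene without a call in the main liver fit, had GC contents of 57.6% and 80.4%, with 2 and 5 GC boxes. That of Otc, also without a call, had 43.6% and no GC box. Matches are a description of the letters in these windows only, and no link of GC content or GC box to the calls was tested.

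Asl encodes argininosuccinate lyase, which releases arginine and fumarate. Its first probe gave 0.96, 0.65 and 0.57 in WT, 1.37, 0.83 and 0.49 in 569, 2.37, 1.86 and 0.87 in 391, 1, 1.2 and 1.02 in Box1, and 1.39, 2.04 and 0.96 in KO. Its second gave 0.92, 0.64 and 0.65 in WT, 1.34, 0.59 and 0.51 in 569, 3.44, 1.71 and 1 in 391, 0.91, 1.12 and 1.08 in Box1, and 1.31, 1.96 and 0.76 in KO. The ratio of 3.44 is the highest of any member in liver. Probe 3 gave 1, 0.54 and 0.58 in WT, 1.07, 0.68 and 0.37 in 569, 1.6, 1.33 and 1.15 in 391, 0.93, 1.23 and 0.89 in Box1, and 1.04, 1.27 and 0.77 in KO. The 391 livers lay above all WT livers with probes 2 and 3. The SD within a group reached 0.89 (probe 2 in 391). Differences of 1.14, 1.31 and 0.99 in 391 (adjusted p = 0.18, 0.16 and 0.15) were not called, nor were those of 0.51 to 0.59 in Box1 and 0.57 to 0.98 in KO. Without both pancreatic arrays, which leaves 1 array in 391, the second probe differed by 2.24.

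Arg1 encodes the liver arginase that splits arginine into urea and ornithine. Its probe gave 0.79, 0.49 and 0.76 in WT, 1, 0.64 and 0.53 in 569, 1.99, 1.62 and 1.1 in 391, 1.03, 1.1 and 1.04 in Box1, and 1, 1.49 and 0.64 in KO. The 391 and Box1 livers lay above all WT livers, and KO replicate 3 lay among them. The difference of 1.20 ± 0.29 in 391 (2.29-fold) had an adjusted p of 0.052, and those of 0.67 in Box1 (adjusted p = 0.36) and 0.57 in KO (adjusted p = 0.46) were not called. Against WT in 391, Arg1 passed the threshold without 391 replicate 3 alone (1.43, adjusted p = 0.024) and with an offset before the logarithm (1.09, adjusted p = 0.0496). It also passed with probes of 1 gene symbol alone tested (1.20, adjusted p = 0.045). Without both pancreatic arrays, which leaves 1 array in 391, the difference was 1.58.

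Tdo2 encodes tryptophan dioxygenase, the first and rate-setting step from tryptophan to kynurenine in liver, which glucocorticoids induce. It did not share the order of the cycle's genes. Its probe gave 1.57, 0.89 and 1.06 in WT, 0.99, 0.63 and 0.92 in 569, 1.45, 1.42 and 0.87 in 391, 0.86, 1.45 and 1.7 in Box1, and 1, 1.43 and 0.83 in KO. All groups overlapped, and the differences from WT were -0.46 in 569, 0.09 in 391, 0.17 in Box1 and -0.11 in KO (adjusted p from 0.83 to 0.95). The interval for 391 ran from -0.52 to 0.71, so a difference of the size fitted for the second Cps1 probe lies outside it. The 0.43 fitted for the first Cps1 probe and the 0.25 fitted for Otc in 391 lie inside it. These fitted sizes have errors of their own, and Tdo2 was not tested against Cps1 or Otc.

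Against WT, 569 was the genotype with no call among the members. Of the 12 probes 0 were called by limma and 0 had an unadjusted p under 0.05, where over all probes 0% were called higher and 0.00858% lower. Differences ran from -0.46 (Tdo2) to 0.40 (Ass1 probe 2), and 10 of 12 were above 0, beside 42.8% of all probes. The interval for the first Ass1 probe was -0.14 to 0.44 and that for the second Cps1 probe -0.28 to 0.68. These 2 genotypes shared a slide.

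The truncation at 391 was next set against the longer one at 569, which lay on another slide, so that slide and genotype cannot be told apart here. Ass1 and Arg1 were higher in the 391 livers: 3 of 12 probes rose, where 4.31% of all probes were called higher, and 0 fell, also at an unadjusted p under 0.05. The differences were 0.64 ± 0.14 for Ass1 probe 1 (adjusted p = 0.015), 1.10 ± 0.29 for Ass1 probe 2 (adjusted p = 0.041) and 1.13 ± 0.29 for Arg1 (adjusted p = 0.040). The second Cps1 probe differed by 0.78 (adjusted p = 0.064) and Asl probe 3 by 1.06 (adjusted p = 0.073). With 6 of 12 probes the 391 livers lay above all 569 livers, a pattern found in 13% of all probes. Ass1 probe 1 lost its call without 569 replicate 2 or 3, and Ass1 probe 2 and Arg1 lost theirs without 569 replicate 2 or 3 or 391 replicate 1 or 2, with adjusted p between 0.074 and 0.17. Of 8 other settings, 4 ended the call of Ass1 probe 1, 6 that of Ass1 probe 2 and 4 that of Arg1. Among the 8 was the fit without both pancreatic arrays, which leaves 1 array in 391. Its differences were 0.62, 1.40 and 1.51 for Ass1 probe 1, Ass1 probe 2 and Arg1.

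Between 391, Box1 and KO no member probe was called by limma, so the height of 391 over the other 2 is a description. At an unadjusted p under 0.05 lay 1 probe in KO against 391 (Arg1), 1 in Box1 against 391 (Ass1 probe 2) and 0 in KO against Box1, and the calls over all probes were 0.18%, 0.00429% and 0.148% in either direction. Arg1 was lower in KO than in 391 by a difference of -0.63 with an interval of -1.26 to -0.004 (adjusted p = 0.61). Ass1 probe 2 differed by -0.64 between Box1 and 391, with an interval of -1.25 to -0.02 (adjusted p = 0.81). KO and Box1 differed by -0.02 for Ass1 probe 1, with an interval of -0.31 to 0.27, and by 0.38 for Asl probe 1, with an interval of -0.43 to 1.20. KO and 391, which shared a slide, differed by -0.17 for Ass1 probe 1 (-0.46 to 0.12) and by -0.15 for Cps1 probe 2 (-0.63 to 0.33). The F test over all 4 mutants called Ass1 probe 1 (adjusted p = 0.0073), Ass1 probe 2 (0.030) and Cps1 probe 2 (0.047), 3 of 12 probes beside 5.43% of all probes.

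The livers that were high were mostly the same arrays from gene to gene. Among WT livers, replicate 1 was highest or tied with 12 of 12 probes. Among 569 livers replicate 1 was highest with 11 and replicate 3 lowest with 11. Among 391 livers replicate 1 was highest and replicate 3 lowest with 9 each. In KO replicate 2 was highest with 9 and replicate 3 lowest with 10. Box1 showed the least such order, with replicate 2 highest in 7. The 391 liver without pancreatic transcripts was thus the one with the highest member values, and its median over the 12 probes was 0.90, against 0.46 and 0.01 in the other 2 livers. The probes share their arrays, so this order is no evidence from separate samples.

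A further 8 lists of amino acid metabolism hold 111 other genes, 104 of them measured. Against WT, 15 of the 104 rose and 2 fell in 391, 5 rose and 2 fell in Box1, 18 rose and 1 fell in KO, and 1 fell in 569. Over all probes the calls higher than WT were 1.48% in 391, 1.06% in Box1, 1.44% in KO and 0% in 569. Those lower than WT were 0.427%, 0.264%, 0.489% and 0.00858%. Each gene was taken by its most variable probe over the livers, so the counts and these shares are not like for like. The median differences of the 104 genes were 0.26 in 391, 0.23 in Box1, 0.33 in KO and -0.07 in 569. Each lay below that of the 7 members, but beside all-probe medians near 0. Without both pancreatic arrays 391 is left with 1 array, replicate 1, the highest of the 391 livers with 9 of the 12 member probes. Shares over all probes were not computed in that fit, so its counts for these lists are not given.

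**Figure D3:**
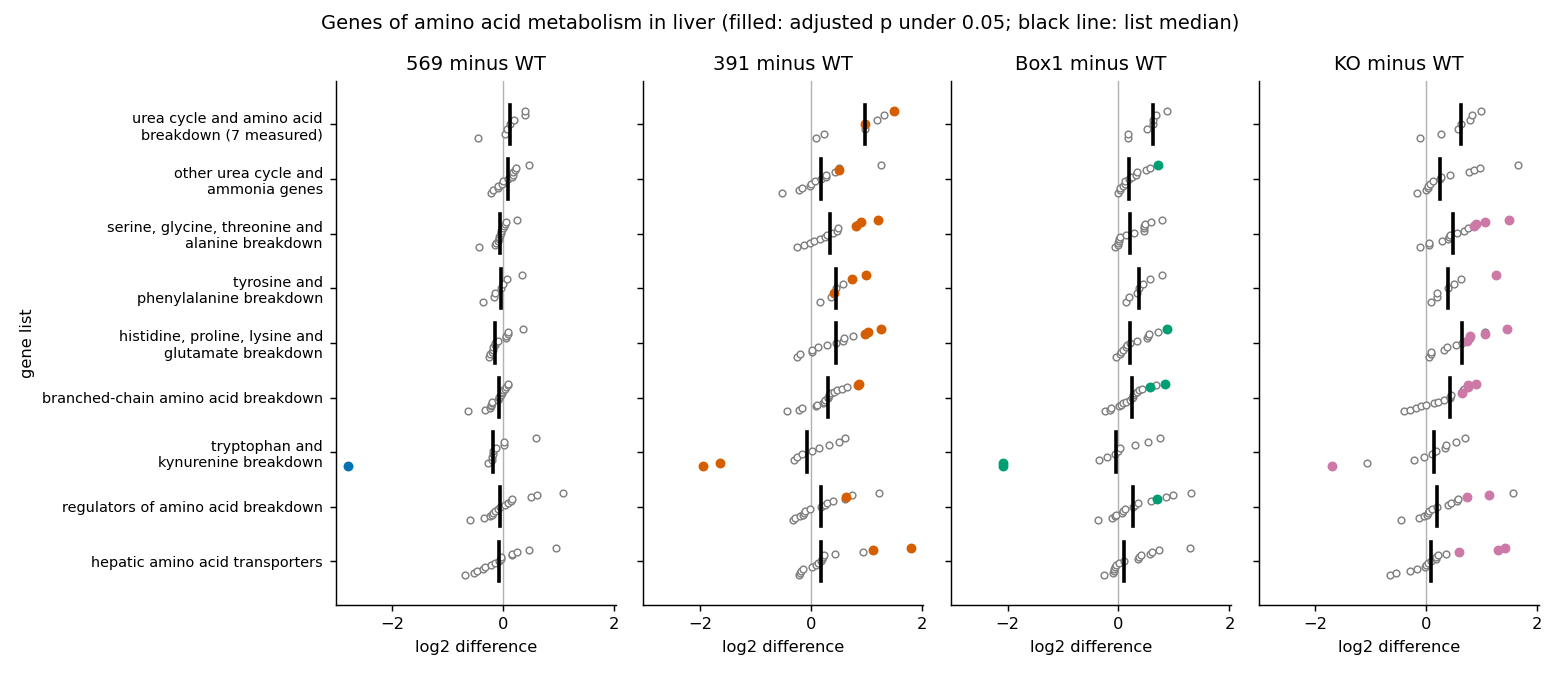
Difference from WT in liver (horizontal axes, log2) of each measured gene, by list (vertical axis), with 1 panel per mutant, each gene by its most variable probe; filled points have an adjusted p under 0.05 and the black line is the list's median. The top list, the 7 measured members, has medians of 0.13, 0.98, 0.62 and 0.63, and the low points of the tryptophan list are Kyat1 and Kyat3.

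Among 13 measured ammonia and urea cycle neighbours, 1 gene was called. For this and the list counts below, all-probe shares called higher were 1.48% in 391, 1.06% in Box1 and 1.44% in KO. Each gene is again its most variable probe. Glud1, glutamate dehydrogenase, which frees ammonia from glutamate, rose by 0.51 in 391 (adjusted p = 0.020) and by 0.71 in Box1 (adjusted p = 0.0025). Of 14 genes of serine, glycine, threonine and alanine breakdown, 3 rose in 391, 0 in Box1 (6 at an unadjusted p under 0.05) and 4 in KO. Agxt, which moves the amino group of alanine to glyoxylate, stood at 0.77, 0.44 and 0.58 in WT, 1.51, 1.01 and 1.59 in 391 and 1.34, 2.09 and 1.59 in KO. It rose by 1.21 ± 0.23 in 391 (adjusted p = 0.016) and 1.5 ± 0.23 in KO (adjusted p = 0.0031), with no overlap with WT. The alanine aminotransferase Gpt rose by 0.82 and 0.87, the glycine cleavage enzyme Gldc by 0.91 in 391, and in KO Agxt2 rose by 1.05 and Gpt2 by 0.89.

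Of 7 genes of tyrosine and phenylalanine breakdown, 3 rose in 391 and 1 in KO. Hpd, hydroxyphenylpyruvate dioxygenase of the tyrosine route, rose by 0.99 ± 0.19 in 391 (adjusted p = 0.014) and 1.25 ± 0.19 in KO (adjusted p = 0.0022). Qdpr, which regenerates the cofactor of phenylalanine hydroxylase, rose by 0.74 in 391, and Gstz1, a later enzyme of the tyrosine route, by 0.42. Of 13 genes of histidine, proline, lysine and glutamate breakdown, 3 rose in 391, 1 in Box1 and 4 in KO. The histidine enzyme Amdhd1 rose in each (1.03, 0.87 and 0.78; adjusted p = 0.011, 0.037 and 0.050, the last below the threshold before rounding). Ftcd of the same route rose by 0.98 and the lysine enzyme Aass by 1.27 in 391, while in KO the lysine and tryptophan enzyme Dhtkd1 rose by 1.46 and the proline enzymes Prodh and Aldh4a1 rose by 1.05 and 0.73.

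Of 18 branched-chain genes, 2 rose in 391, 2 in Box1 and 4 in KO. Dbt, a subunit of the branched-chain ketoacid dehydrogenase, rose by 0.86, 0.57 and 0.91, and Pccb of propionyl-CoA carboxylase by 0.86, 0.84 and 0.65 in 391, Box1 and KO. In KO Mcee and Ivd rose by 0.76 and 0.75. The tryptophan and kynurenine list, to which Tdo2 is the entry, had 0 of 10 genes called higher in any mutant, near what the share over all probes gives, and the kynurenine aminotransferases Kyat1 and Kyat3 fell. The log2 differences of Kyat1 were -1.95 in 391, -2.09 in Box1 and -1.70 in KO, and those of Kyat3 were -2.79 in 569, -1.63 in 391 and -2.09 in Box1. By limma, 1, 2 and 2 genes of this list were higher at an unadjusted p under 0.05 in 391, Box1 and KO.

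Among 15 measured regulators of these genes, Foxo1, a factor that insulin holds in check, rose in all 3 genotypes, by 0.64 in 391, 0.70 in Box1 and 0.74 in KO (adjusted p = 0.038, 0.031 and 0.016). Its ratios were 0.66 to 0.68 in WT, 0.66 to 0.84 in 569, 0.82 to 1.37 in 391, 1 to 1.19 in Box1 and 1.04 to 1.24 in KO. Klf15, a factor of fasting amino acid breakdown, rose by 1.13 in KO (adjusted p = 0.030). Of 15 amino acid transporters, 2 rose in 391 and 3 in KO. Slc7a2, which carries arginine and other cationic amino acids, rose by 1.80 ± 0.32 in 391 (adjusted p = 0.0083) and 1.42 ± 0.32 in KO (adjusted p = 0.031). Slc6a12, a betaine carrier, rose by 1.12 in 391 and 1.30 in KO, and Slc38a4, a carrier of neutral amino acids, by 0.60 in KO.

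The cycle's genes are periportal, and the list of 16 measured periportal genes, which holds 4 of the members, did not move as one. In 391 3 rose (Ass1, Cps1 and Pigr) and 2 fell (Cyp2f2 and Igfals), in Box1 Pigr rose while Cyp2f2 and Igfals fell, and in KO Pigr rose while Ctsc and Igfals fell. The differences of Cyp2f2, a periportal cytochrome, were -0.95 in 391 and -0.75 in Box1, and those of Pigr, the receptor for polymeric antibodies, were 0.88, 0.87 and 0.83. Igfals, a growth hormone target, differed by -4.23, -4.10 and -3.83. Of 16 pericentral genes, Lgr5 rose in 391 and Box1 (0.75 and 0.74), and Aldh1a1 fell by 1.31 in 391.

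Markers of other cells were compared between the same livers. Of 8 measured Kupffer cell and macrophage markers, 8 stood above WT in KO, 7 in Box1 and 5 in 391, with median differences of 0.40, 0.34 and 0.03. None was called by limma, and 3, 2 and 0 had an unadjusted p under 0.05. Their summed log2 ratios ran from -1.19 to -0.75 in WT, 1.31 to 3.38 in KO, -1.19 to 3.52 in Box1 and -2.98 to 2.61 in 391, so that KO did not overlap WT. Of 6 lymphocyte markers, 6 stood above WT in KO and in 391 and 4 in Box1 (medians 0.32, 0.22 and 0.17), with 0 called and 2, 2 and 1 at an unadjusted p under 0.05. Of 8 endothelial markers, 7 stood above WT in KO, 6 in Box1 and 6 in 391 (medians 0.19, 0.25 and 0.16), and Pecam1 rose by 0.65 in 391. Of 3 erythroid markers, Alas2 fell, with differences of -1.38 in 391, -1.46 in Box1 and -1.22 in KO, and the list's medians were -0.42, -0.41 and -0.55. Of 4 bile duct markers, Sox9 fell (-0.96 in Box1 and -1.08 in KO), while 3 of the 4 in Box1 and 2 in KO stood above WT and the medians were 0.05 and -0.10. Their part in the members' differences was not tested.

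In subcutaneous fat no member was called. The F test over the mutants gave adjusted p of 0.67 and above for the 12 probes, with 0 at an unadjusted p under 0.05, where limma called 0.015% of all probes. Single arrays stood far out instead. Box1 replicate 2 gave 36.7 for Cps1 probe 1, 17.39 for Cps1 probe 2, 11.82 for Arg1 and 7.22 for Ass1 probe 1, and WT replicate 2 gave 10.99, 3.47, 3.5 and 2.61. The first Cps1 probe lay between 0.75 and 1.98 in the other 13 fat arrays. In the same arrays 7 and 8 of 10 hepatocyte markers exceeded 2-fold, against 0 or 1 in each other fat array, with summed log2 ratios of 26.4 and 16.5 and between -3.39 and 6.70 elsewhere. Ttr stood at 41.4 and 13.96 and Apoa1 at 21.9 and 4.81, while Alb stood at 1.32 and 0.95 and Fgb at 1.07 and 1.02. The part of hepatocyte transcripts in these values was not tested. In 569 replicate 1 Arg1 stood at 4.81 while the hepatocyte sum was -0.51.

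**Figure D4:**
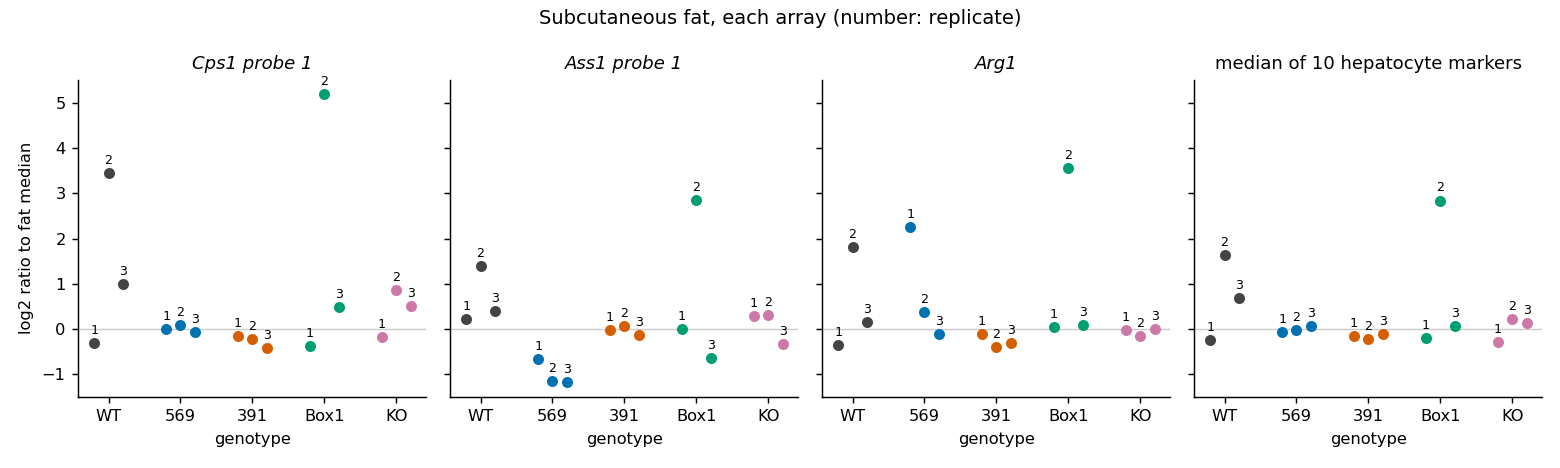
Log2 ratio to the fat median (vertical axis) in each of the 15 subcutaneous fat arrays by genotype (horizontal axes), with the replicate number above each point, for Cps1 probe 1, Ass1 probe 1, Arg1 and the median of 10 hepatocyte markers. Box1 replicate 2 and WT replicate 2 stand highest in the panels of Cps1, Ass1 and the markers, and for Arg1 569 replicate 1 lies between them.

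Otc, Tdo2 and the first Slc25a15 probe stayed close to 1 in fat, with ranges of 0.77 to 1.28, 0.76 to 1.51 and 0.88 to 1.12. Without fat WT replicate 2 and Box1 replicate 2, an alternative chosen after seeing the data, 0 members were called in fat. Ass1 probe 1 was lower in fat of 569 (0.63, 0.45 and 0.44) than in every WT fat array (1.16, 2.61 and 1.31). The 2.61 came from WT replicate 2, an array with hepatocyte transcripts. The share of all fat probes without such overlap was not computed, so the separation is not read as a result about Ass1. The difference of -1.66 was not called (adjusted p = 0.55), and the part of other cells in it was not tested. Summed log2 ratios of lymphocyte markers ran from -16.5 to -15.5 in fat of 569 and from -12.5 to 5.81 in WT fat. Those of skeletal muscle markers ran from -17.0 to 29.1 in 569 and from -17.2 to -12.5 in WT. Those of adipocyte markers ran from -12.5 to -0.19 in 569 and from -0.67 to 2.10 in WT. Whether a mutant's difference from WT itself differed between liver and fat was tested by an interaction, and 0 of 12 probes were called by its F test (lowest adjusted p = 0.498, 0 at an unadjusted p under 0.05), beside 0.596% of all probes. By single contrasts no probe was called either. For 391 against WT, 9 of 12 probes had an unadjusted p under 0.05, each with the larger signed difference in liver, where 4.31% of all probes did (lowest adjusted p = 0.44, for Slc25a15 probe 2). The same count was 1 in 569 and 0 in Box1 and KO. For Cps1 probe 2, Arg1 and Ass1 probe 1, fat of 391 differed from WT by -0.96, -0.80 and -0.70, beside 0.98, 1.20 and 0.79 in liver. Fat WT replicate 2, with hepatocyte transcripts, gave 3.47, 3.5 and 2.61 for them, and its part was not tested. For the rest of the 9 probes the fat difference lay between -0.17 and 0.14.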

How the data were processed

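Per the labels' protocols, RNA came from frozen liver and subcutaneous fat and was hybridized, biotin-labelled, to Illumina bead arrays. The authors deposited a ratio: a probe's value over its median in the 15 arrays of that tissue. This was read from the values, since each of the 46643 probes has a median of 1 in both tissues. Ratios carry 2 decimals, so low ratios are coarse. The sources used here do not give the background treatment, normalization or software. Signal over background is unknown, and the number of arrays limits the precision.

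On log2 of the deposited ratios, with no offset, limma 3.58.1 (R 4.3.3; eBayes after contrasts of group means) fitted the 15 arrays of a tissue together, and for the interaction the 30 arrays together. Tests were two-sided, adjusted by Benjamini-Hochberg over all probes. No filter on low values was applied. The fit was tested on simulated data. Probes were named from the platform annotation, which gives 1 symbol for 32794 probes, and 32722 of these had a RefSeq gene ID (GRCm38.p6). Figures were drawn with matplotlib. All 9 members were named with every probe, and of each other list the called genes, up to 4 a list and comparison with WT by size, each by its most variable probe over the livers. The members and lists were chosen with earlier results of these data known. Whether arrays stand for separate animals is not stated in the labels, and p-values measure the spread among these arrays alone, possibly technical. A slide block could not be fitted for groups on slides of their own. Alternatives were quantile normalization, array weights, another prior variance, an offset, fewer probes, a filter on low values, other sets of arrays, the mean of a gene's probes, and each array left out.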

Additional observations from a re-analysis of the deposited data

How the results depend on the processing

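Counts below are of the 7 measured genes called, each by its most variable probe. Shares over all probes were computed for the main fit only, so a change in a count is not read as a result about these genes. No count is given without both pancreatic arrays, which leaves 1 array in 391. In 391 against WT (2 genes) the count was 1 with a prior variance set to trend and robust and 1 in a fit of the 6 arrays alone. It was 0 in 1 fit of all 30 arrays and 0 with low values left out. In 391 against 569 (2 genes) it was 0 with quantile normalization, array weights, low values left out, the 6 arrays alone or all 30 arrays. With the trend and robust prior it was 1. The liver F test (2 genes) gave 0 with quantile normalization, the trend and robust prior, low values left out or all 30 arrays. With the mean of a gene's probes it gave 1. KO against WT (0 genes) gave 1 with array weights and 1 with the mean of a gene's probes, and Box1 against WT (0 genes) gave 2 in a fit of the 6 arrays alone. The filter on low values kept 1 of the 12 probes (Otc) in liver, which removes most members by construction, and the cause of the other changes was not tested. Leaving out each array in turn gave 0 to 5 genes in 391 against WT, 0 to 4 in 391 against 569, 0 to 2 in the F test and 0 to 1 in KO against WT, and 0 in the other comparisons. Without 391 replicate 3 the count against WT was 5, and without 391 replicate 1 or WT replicate 3 it was 0. In 391 against 569 it was 4 without 569 replicate 1 or 391 replicate 3 and 0 without 569 replicate 2, 569 replicate 3, 391 replicate 1 or 391 replicate 2. Of 1304 refits of single probes over all liver comparisons, 1227 kept their side of the threshold, 50 lost a call and 27 gained one, none reversed a called difference, and 52 of the 1227 differed in sign with no call in either. No paired analysis was possible because the labels carry no replicate numbers. Whether probes lie near background cannot be told from ratios.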
